A study of Mus musculus with 9 samples.

Results

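Eicosanoids are short-lived lipid signals made from arachidonic acid, and the transcripts of 10 genes of their synthesis and inactivation were examined here in the skin of control and *Supt6*-KO mice. The genes were chosen by name, for their place in the pathway, with earlier results of these data known. They are the phospholipase *Pla2g2f*, the cyclooxygenases *Ptgs1* and *Ptgs2*, the prostaglandin E synthase *Ptges*, the prostaglandin-inactivating enzyme *Hpgd*, the leukotriene genes *Alox5*, *Alox5ap* and *Lta4h*, and the lipoxygenases *Alox12* and *Alox15*. All 10 have a row among the 17943 genes of the count table, and all 10 are among the 16426 genes with at least 10 counts over the 9 mice that were tested.

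Eicosanoid synthesis starts when a phospholipase A2 frees a fatty acid from membrane lipid. Cyclooxygenases turn arachidonic acid into prostaglandin H2, from which terminal synthases make prostaglandin E2 and its relatives, and a dehydrogenase inactivates them. In a separate branch, 5-lipoxygenase and its partner protein make leukotriene A4, which a hydrolase turns into leukotriene B4, a neutrophil attractant. Other lipoxygenases oxygenate arachidonic or linoleic acid at other positions, and in epidermis several of them serve the water barrier.

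Bulk RNA-Seq libraries came from 5 control mice and 4 *Supt6*-KO mice, taken 10 days after the last of 5 daily injections. The *Supt6*-KO mice were K14-CreERT; *Supt6* fl/fl animals given tamoxifen at 50 mg/kg, and the controls were *Supt6* fl/fl animals given corn oil. Both groups thus carry the floxed allele, while the Cre transgene and tamoxifen were present only in the *Supt6*-KO mice, so their effects and that of the deletion cannot be told apart. The sample labels call the controls wild-type and the tissue ear, whereas the methods of the study name dorsal skin, and the injections are placed in the first telogen, the resting phase of the hair cycle. Strain and the age in weeks of these 9 mice are not given in the sources used here. The keratin 14 promoter drives Cre in basal keratinocytes, so fibroblasts, vessels and leukocytes of the same skin piece keep *Supt6*.

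Each control library held 29627341 to 30491197 counts (median 29870087) and each *Supt6*-KO library 30597189 to 30967107 (median 30794136), so that 3 counts, used here as the detection floor, correspond to 0.0969 to 0.101 CPM, the read count relative to the library total, before scaling. Such a floor covers counting error only. CPM values below are scaled by the trimmed mean of M-values (TMM) unless another scaling is named, and they are given as mean ± SD with n = 5 controls and n = 4 *Supt6*-KO mice. Log2 fold changes are *Supt6*-KO over control from edgeR's quasi-likelihood test, with p adjusted over all genes tested. A gene was called at an adjusted p under 0.05 and at least a 2-fold change. Whether the mice were littermates is not given. The p-values set the difference between the groups against the spread within them, over these 9 animals only.

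The libraries differed in ways that touch every value below. TMM factors were 1.198 to 1.315 in the controls and 0.6738 to 0.9098 in the *Supt6*-KO mice, and the genes tested had a median log2 fold change of -0.072 under TMM and of -0.759 under plain library totals. Directions are therefore relative to the bulk of the genes, and the value with library totals is given wherever it ends or turns the call of a gene of the pathway, and as a count for the marker lists. Transcript length also moved with the group: the slope of a gene's log2 deviation on the log10 of its transcript length was positive in each control (0.363 to 1.6) and negative in each *Supt6*-KO mouse (-1.22 to -0.622). The part of that trend in the results was tested only through a fit with the trend removed.

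The tissue label was checked against marker genes. Keratinocyte transcripts were abundant in every mouse, but those of the basal layer did not move as one. *Krt14*, a basal keratin, had a mean of 3380 ± 304 CPM in the control group and of 5350 ± 2910 CPM in *Supt6*-KO mice and was not called. Of the 7 basal markers none was called higher and 4 were called lower (*Krt15*, *Col17a1*, *Itgb4* and *Trp63*; median log2 fold change of the 7 -1.21), and 6 were called lower with library totals. The basal markers summed to 8400, 5800 and 7010 CPM in *Supt6*-KO mice 1 to 3 and to 14100 CPM in mouse 4, against 11600 to 13300 CPM in the controls. *Krt10*, a keratin of the differentiating layers, had means of 14300 ± 730 and 16400 ± 5760 CPM. The suprabasal markers summed to 19100 to 20900 CPM in the controls, to 41900, 40600 and 39600 CPM in *Supt6*-KO mice 1 to 3, and to 19500 CPM in *Supt6*-KO mouse 4. Of these 7 markers 4 were called higher, led by *Krt1* (833 ± 159 and 10400 ± 2430 CPM), and 1, the cornified envelope gene *Lor*, was called lower (1160 ± 284 and 492 ± 222 CPM), with the same counts under library totals. *Supt6*-KO mouse 4 stood apart from the other three *Supt6*-KO mice in both lists, and calls that rest on it are given with and without it. Markers of other tissues of the skin piece were lower as well. Skeletal muscle markers summed to 4110 ± 455 CPM in the controls and 982 ± 199 CPM in *Supt6*-KO skin, with 5 of 6 called lower (6 with library totals) and *Acta1* the most abundant. Cartilage markers summed to 430 ± 168 and 48.1 ± 3.29 CPM, with 5 of the 5 tested called lower under both scalings. *Matn1*, the cartilage marker not tested, was at 3 counts or fewer in every mouse. Cartilage is a tissue of the ear and not of dorsal skin, and its markers stood at 290 to 707 CPM in each control and at 43.8 to 51.6 CPM in each *Supt6*-KO mouse. Keratinocyte markers were thus present in all 9 mice, but the site was not settled, and a difference between the groups in the site or tissue taken cannot be told apart from the group in any fold change below.

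Sebaceous gland markers summed to 6800 ± 543 and 1490 ± 351 CPM, a sum made mostly of the desaturase gene *Scd1* (5840 ± 559 and 863 ± 192 CPM), with 4 of 7 called lower (5 with library totals) and *Awat2* at a log2 fold change of 0.30. Hair follicle markers had 7 of 8 called lower under both scalings, but the controls themselves stood far apart, at 1860, 198, 637, 435 and 83.2 CPM, against 41.2 to 99.9 CPM in *Supt6*-KO skin. Fibroblast markers summed to 2910, 2540, 1790, 3800 and 6940 CPM in the controls, control 5 being the highest, and to 1090 ± 205 CPM in *Supt6*-KO skin, with 3 of 7 called lower (5 with library totals). Adipocyte markers summed to 123 ± 21 and 47.2 ± 7.35 CPM, with 4 of 5 called lower (5 with library totals), and T cell markers to 30.7 ± 4.12 and 9.15 ± 2.95 CPM, with 1 of 6 called higher and 2 lower (1 and 3 with library totals). These sums moved with the group, and their part in the results was not tested. In bulk skin, fewer cells of a type and less RNA per cell cannot be told apart.

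*Supt6* itself checks the labels. It stood at 74.5, 56.6, 63.6, 91.1 and 96.7 CPM in controls 1 to 5 and at 28.6, 24.1, 21.9 and 28.4 CPM in *Supt6*-KO mice 1 to 4. Every *Supt6*-KO mouse lay below every control. The log2 fold change was -1.57 ± 0.18 (SE, edgeR adjusted p = 1.3e-05), with library totals -2.26 and with the length trend removed -0.98, just under 2-fold.

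Of the 10 genes, 3 were called higher in *Supt6*-KO skin (*Ptgs2*, *Ptges* and *Hpgd*), 3 were called lower (*Alox5*, *Alox12* and *Alox15*) and 4 were not called (*Ptgs1*, *Alox5ap*, *Lta4h* and *Pla2g2f*). Over all genes tested, 20.9% were called higher and 24.9% lower, so that 3 in 10 in each direction is near the share in the whole table. At an adjusted p under 0.05 with no limit on size, 5 of the 10 were higher and 4 lower, against 34.1% and 36.8% of all genes. The 4 *Supt6*-KO mice lay above all controls for 4 genes (*Ptgs2*, *Ptges*, *Hpgd* and *Alox5ap*; 28.9% of all genes did so) and below all controls for 3 (*Ptgs1*, *Alox5* and *Alox12*; 31.8% of all genes). The median log2 fold change of the 10 was 0.40, and -0.28 with library totals. With library totals 1 was called higher (*Ptgs2*) and 4 lower (*Ptgs1*, *Alox5*, *Alox12* and *Alox15*), against 8.95% and 41.4% of all genes. Without *Supt6*-KO mouse 4, 4 were called higher, *Pla2g2f* being added, and 2 lower, *Alox15* being lost. In that fit 3336 of all genes tested were called higher and 4204 lower, against 3427 and 4088 with all mice kept.

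**Figure D1:**
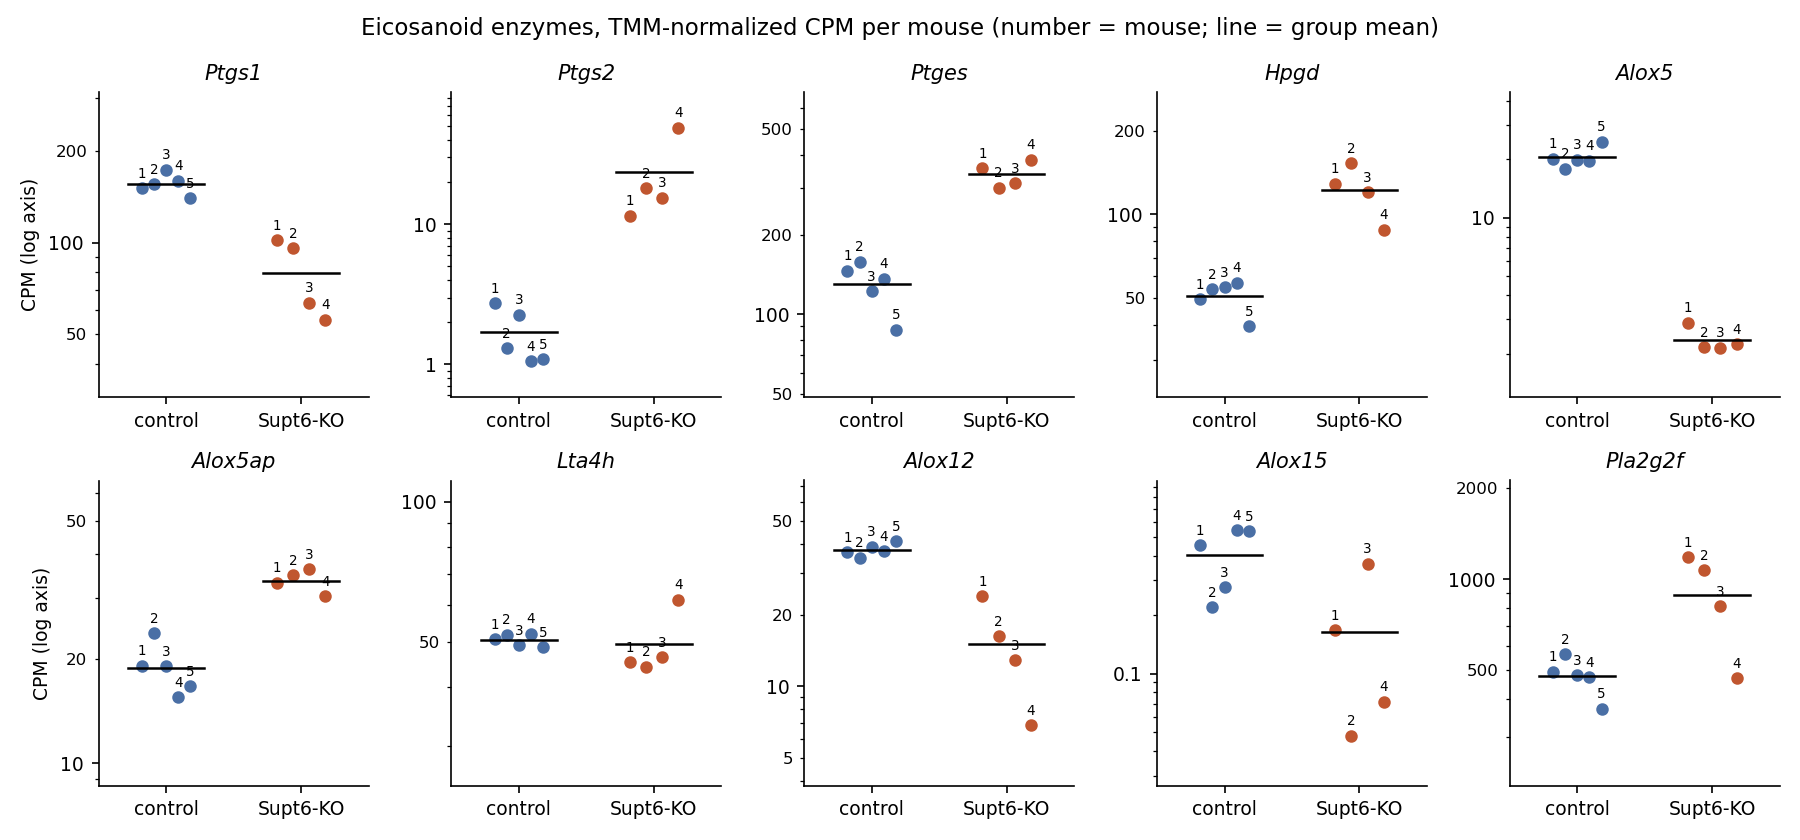
TMM-scaled CPM of the 10 eicosanoid enzyme genes on log axes, with 1 numbered point per mouse (5 controls in blue, 4 *Supt6*-KO mice in red) and a line at each group mean. The groups are apart for 7 genes and overlap for *Lta4h*, *Alox15* and *Pla2g2f*; *Supt6*-KO mouse 4 is the highest of its group for *Ptgs2* (48.9 CPM) and the lowest for *Alox12* (6.86 CPM) and *Pla2g2f* (469 CPM).

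*Pla2g2f* encodes a secreted phospholipase A2 of the suprabasal epidermis. Its levels were 493, 565, 480, 472 and 372 CPM in the controls and 1180, 1070, 814 and 469 CPM in *Supt6*-KO mice 1 to 4. Mice 1 to 3 lay above every control, while mouse 4 lay among the controls, as it did for the summed suprabasal markers. *Pla2g2f* rose from 476 ± 68.7 to 885 ± 317 CPM, by less than 2-fold, with a log2 fold change of 0.89 ± 0.24 (SE, edgeR adjusted p = 0.0062). Without *Supt6*-KO mouse 4 it was 1.10 (edgeR adjusted p = 8.8e-05) and called. With library totals it did not pass the test (0.17, edgeR adjusted p = 0.48).

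*Ptgs2* encodes cyclooxygenase-2, the inducible isoform that is kept low in resting tissue and rises within hours of an inflammatory stimulus. It lies on mouse chromosome 1, from 150100031 to 150108234 on the forward strand of GRCm38.p6. Because *Ptgs2* showed the largest rise of the 10 genes and *Alox5* the largest fall, their promoter windows are shown, each with the 200 bases before the RefSeq start site and the 30 bases from that site on. Capitals mark letters that match 1 of 6 motifs searched on both strands.
Ptgs2, chr1:150099831-150100060, forward strand: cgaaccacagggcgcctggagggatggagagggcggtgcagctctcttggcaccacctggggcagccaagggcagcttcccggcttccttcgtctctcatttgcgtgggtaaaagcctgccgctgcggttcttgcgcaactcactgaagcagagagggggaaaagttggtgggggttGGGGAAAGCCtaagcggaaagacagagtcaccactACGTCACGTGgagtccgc
Alox5, chr6:116461149-116461378, reverse strand: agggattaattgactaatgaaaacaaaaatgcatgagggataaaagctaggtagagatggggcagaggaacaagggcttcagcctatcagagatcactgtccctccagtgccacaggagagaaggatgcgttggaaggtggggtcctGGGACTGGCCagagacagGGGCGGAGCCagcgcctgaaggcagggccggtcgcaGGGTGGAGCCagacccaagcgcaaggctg
In the *Ptgs2* window, with positions counted from 1 at the start site and from -1 backward before it, an NF-kB-like match (GGG and CC with 5 bases of any kind between them) began at -23, a cyclic AMP response element core (TGACGT, here on the other strand as ACGTCA) at 13 and an E-box (CACGTG) at 17, the last 2 sharing letters. The *Alox5* window held 3 NF-kB-like matches, at -53, -35 and 2. These letters are common: of 32544 RefSeq promoter windows of 300 bases, 51% hold the NF-kB-like motif, 7.55% TGACGT and 7.17% CACGTG. Among the 8 of the 10 genes that have a window, 7 hold the NF-kB-like motif, *Hpgd* being the exception, and none holds TGANTCA, an AP-1-like motif found in 7.79% of all windows. TATAAA, in 13.6% of all windows, was found only in that of *Hpgd*, and CCAAT, in 37.4%, only in that of *Lta4h*. A match is a run of letters and not a shown binding site.

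*Ptgs2* stood at 2.73, 1.31, 2.27, 1.05 and 1.09 CPM in controls 1 to 5 (39 to 102 counts) and at 11.5, 18.1, 15.5 and 48.9 CPM in *Supt6*-KO mice 1 to 4 (275 to 1360 counts). The groups were far apart, and mouse 4 stood well above the other *Supt6*-KO mice. The means were 1.69 ± 0.76 and 23.5 ± 17.1 CPM, a ratio of 13.9, and the log2 fold change was 3.79 ± 0.46 (SE, edgeR adjusted p = 2.2e-05). With mouse 4 left out the estimate was 3.15 (edgeR adjusted p = 6.1e-06). *Ptgs2* was the one gene of the 10 called higher under both scalings.

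*Ptgs1* encodes cyclooxygenase-1, the isoform most tissues express at all times. Its levels were 151, 156, 174, 160 and 140 CPM in the controls and 102, 96, 63.4 and 55.8 CPM in *Supt6*-KO mice 1 to 4, with no overlap. *Ptgs1* fell from 156 ± 12.7 to 79.4 ± 23.2 CPM, a log2 fold change of -0.98 ± 0.18 (SE, edgeR adjusted p = 0.00056), just short of the 2-fold limit. It was called lower in 8 of 17 alternatives, among them library totals (-1.69) and removal of the length trend (-1.04). *Ptgs1* shares exon positions with the antisense gene *Gm43621*, which has no row in the table, and whether the counting used strand is not given in the sources used here.

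The balance between the cyclooxygenases can be read within each mouse, where scaling between libraries plays no part, though the length trend is not taken out. Per 100 counts of *Ptgs1*, the controls held 1.8, 0.841, 1.3, 0.658 and 0.784 counts of *Ptgs2* (mean 1.08 ± 0.473). *Supt6*-KO mice 1 to 4 held 11.2, 18.8, 24.4 and 87.6 (mean 35.5 ± 35.1). The ranges were apart, and *Ptgs1* counts still exceeded *Ptgs2* counts in each of the 9 mice.

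*Ptges* encodes the microsomal prostaglandin E synthase that acts downstream of the cyclooxygenases and is itself inducible. It stood at 146, 158, 122, 136 and 87.5 CPM in the controls and at 356, 301, 312 and 384 CPM in *Supt6*-KO mice 1 to 4. All 4 *Supt6*-KO mice lay near each other and above the highest control. *Ptges* rose from 130 ± 27.2 to 338 ± 38.7 CPM, a log2 fold change of 1.38 ± 0.17 (SE, edgeR adjusted p = 2.6e-05). With library totals the groups stayed apart and the log2 fold change was 0.71 (edgeR adjusted p = 0.0063), under the 2-fold limit.

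*Hpgd* encodes 15-hydroxyprostaglandin dehydrogenase, which inactivates prostaglandin E2. It rose as well: the controls stood at 49.6, 53.8, 54.8, 56.8 and 39.7 CPM and *Supt6*-KO mice 1 to 4 at 129, 153, 120 and 88.2 CPM. No *Supt6*-KO mouse reached down to the controls, and mouse 4 was the lowest of its group. The means were 50.9 ± 6.81 and 123 ± 26.8 CPM, with a log2 fold change of 1.27 ± 0.16 (SE, edgeR adjusted p = 3.5e-05). Its adjusted p stayed under 0.05 but its change under 2-fold with library totals (0.55, edgeR adjusted p = 0.0029) and with the length trend removed (0.79, edgeR adjusted p = 0.00033).

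*Ptges* and *Hpgd* were thus both higher. Of the cyclooxygenases upstream of *Ptges*, *Ptgs2* was called higher, while *Ptgs1* was lower but not called. The ratio of *Ptges* to *Hpgd* overlapped between the groups. Controls held 2.94, 2.94, 2.22, 2.4 and 2.2 counts of *Ptges* per count of *Hpgd* (mean 2.54 ± 0.373), and *Supt6*-KO mice 1 to 4 held 2.76, 1.97, 2.6 and 4.35 (mean 2.92 ± 1.02). Mouse 4 had the highest ratio of all 9 mice and mouse 2 the lowest. The ratio does not take out the length trend, and with that trend removed the log2 fold changes were 1.5 for *Ptges* and 0.79 for *Hpgd*.

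*Alox5* encodes 5-lipoxygenase, the first enzyme of leukotriene synthesis, which is known chiefly from neutrophils, macrophages, mast cells and dendritic cells. It stood at 20.1, 17.9, 19.9, 19.6 and 24.6 CPM in the controls (653 to 966 counts) and at 2.88, 2.16, 2.15 and 2.23 CPM in *Supt6*-KO mice 1 to 4 (45 to 69 counts). Both groups were tight and lay far apart. The means of 20.4 ± 2.5 and 2.35 ± 0.354 CPM gave a ratio of 8.65 between control and *Supt6*-KO skin and a log2 fold change of -3.11 ± 0.16 (SE, edgeR adjusted p = 1.4e-07). *Alox5* was called lower in each of the 17 alternatives tried. *Alox5* lies on chromosome 6, from 116410071 to 116461178 on the reverse strand.

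*Alox5ap* encodes the protein that presents arachidonic acid to 5-lipoxygenase, and its values moved the other way. They were 19.1, 23.7, 19.0, 15.5 and 16.7 CPM in the controls and 33.1, 34.8, 36.3 and 30.3 CPM in *Supt6*-KO mice 1 to 4, with no overlap. *Alox5ap* rose from 18.8 ± 3.16 to 33.6 ± 2.57 CPM, less than 2-fold (log2 fold change 0.84 ± 0.14 SE, edgeR adjusted p = 0.0002). This rise was lost with library totals, where the log2 fold change was 0.14 (edgeR adjusted p = 0.39) and the groups overlapped, and with the length trend removed, where it was also 0.14 (edgeR adjusted p = 0.28). *Alox5ap* overlaps the antisense gene *Gm19719*, which has no row in the table.

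*Lta4h* encodes leukotriene A4 hydrolase, which completes leukotriene B4. Its levels were 50.7, 51.9, 49.2, 52.1 and 48.7 CPM in the controls and 45.3, 44.3, 46.4 and 61.7 CPM in *Supt6*-KO mice 1 to 4. The controls spanned a narrow range, *Supt6*-KO mice 1 to 3 lay just below it and mouse 4 above it. The log2 fold change was -0.03 ± 0.12 (SE, edgeR adjusted p = 0.83), its sign changed between alternatives, and with library totals *Lta4h* was lower (-0.70, edgeR adjusted p = 0.0039).

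Markers of leukocytes moved beside these genes. Of the 9 neutrophil markers tested, 7 were called higher (6 with library totals) and 1, *Mpo*, lower. Their sum was 9.65, 7.5, 7.23, 8.28 and 4.66 CPM in the controls and 39.7, 37.1, 88.2 and 28.7 CPM in *Supt6*-KO mice 1 to 4, with *Elane* at 3 counts or fewer in every mouse. *Cxcr2* was the most abundant of them in the controls (6.00 CPM) and in *Supt6*-KO mice 1 and 4 (19.4 and 10.2 CPM), and *Retnlg* in *Supt6*-KO mice 2 and 3 (13.4 and 53.4 CPM). The higher calls of *Ly6g*, *Ltf* and *Ngp* and the lower call of *Mpo* rested on few counts. In that order the controls held 0 to 1, 0, 0 to 4 and 4 to 26 counts. The *Supt6*-KO mice held 0 to 15, 3 to 16, 8 to 85 and 0 to 1. The fall of *Alox5* thus stood beside a higher sum of neutrophil markers. Of the 10 macrophage and monocyte markers, 6 were called higher and 1, *Csf1r*, lower, and their sum was 254 ± 75.7 CPM in the control group and 925 ± 193 CPM in *Supt6*-KO skin (253, 232, 172, 234 and 378 CPM in the controls, 884, 895, 1190 and 729 CPM in *Supt6*-KO mice), led by *Lyz2*. With library totals 2 of them were called higher. Most of the rise in the sum was that of *Lyz2* (92.9 ± 18.5 and 641 ± 207 CPM), while *Csf1r* went from 41.9 ± 12.2 to 11.8 ± 3.17 CPM. Mast cell markers summed to 140, 116, 77.9, 109 and 191 CPM in the controls and 155, 123, 170 and 158 CPM in the *Supt6*-KO mice, with 2 of 8 called higher (*Fcer1a* and *Hdc*) and none lower (1 lower with library totals). *Mcpt4* had the highest mean in the controls (44.2 CPM) and *Cma1* in *Supt6*-KO skin (44.2 CPM).

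Langerhans and dendritic cell markers summed to 212, 227, 204, 181 and 134 CPM in the controls and to 261, 219, 179 and 125 CPM in *Supt6*-KO mice, a sum led by *Epcam*, which keratinocytes also express. Within that list 2 of 7 were called higher (*Xcr1* and *Ccr7*) and 2 lower (*Cd207* and *Flt3*), and with library totals none was called higher and 4 lower. *Cd207*, the marker that defines Langerhans cells, stood at 47.2 ± 12 CPM in the control group and 10.9 ± 7.76 CPM in *Supt6*-KO skin (log2 fold change -2.12, edgeR adjusted p = 0.0015). No marker of these 4 lists was at 0 in every mouse. The part of any of these cells in the values of *Alox5*, *Alox5ap* and *Lta4h* was not tested.

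*Alox12* encodes the platelet-type 12-lipoxygenase, which is found in platelets and in epidermis. Its levels were 36.8, 34.8, 38.8, 37.1 and 41.0 CPM in the controls and 24.0, 16.3, 12.9 and 6.86 CPM in *Supt6*-KO mice 1 to 4. The controls lay close together and every *Supt6*-KO mouse was below them, with mouse 4 the lowest. *Alox12* fell from 37.7 ± 2.32 to 15.0 ± 7.14 CPM, a log2 fold change of -1.33 ± 0.28 (SE, edgeR adjusted p = 0.0011). Without *Supt6*-KO mouse 4 it was -1.09 and without mouse 1 it was -1.65, both called. Platelet markers summed to 14.4, 14.9, 10.5, 12.7 and 20.8 CPM in the controls and 36.1, 32.0, 31.4 and 46.2 CPM in *Supt6*-KO mice, with 3 of the 4 tested called higher (none with library totals), *Gp1ba* lower, *Pf4* the most abundant and *Gp9* at 3 counts or fewer in every mouse. The part of platelets in the fall of *Alox12* was not tested.

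*Alox15* encodes the leukocyte-type 12/15-lipoxygenase of macrophages and eosinophils, and it was close to the detection floor. Its counts were 17, 8, 10, 20 and 21 in the controls and 4, 1, 8 and 2 in *Supt6*-KO mice 1 to 4, or 0.405 ± 0.149 and 0.163 ± 0.145 CPM. The groups overlapped. The log2 fold change was -1.32 ± 0.54 (SE, edgeR adjusted p = 0.046), a call that was lost in 8 of 16 alternatives, among them DESeq2 (-1.27, adjusted p = 0.06). With a mouse left out it ran from -1.05, without *Supt6*-KO mouse 4, to -2.04, without *Supt6*-KO mouse 3. Eosinophil markers summed to 4.47 ± 0.732 CPM in the control group and 2.34 ± 0.354 CPM in *Supt6*-KO skin, with *Ear2* the most abundant, 2 of the 5 tested called higher (1 with library totals) and 1 lower, and the granule genes *Epx* and *Prg2* at 3 counts or fewer in every mouse.

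*Alox12* and *Alox15* sit in a stretch of chromosome 11 that holds *Alox12e* as well, and *Alox8*, *Alox12b* and *Aloxe3* lie about a megabase away on the same chromosome. Of these other 4 lipoxygenases, 1 was called higher and 2 lower (0 and 2 with library totals). *Alox12e* (70315610 to 70322720), which encodes the epidermis-type 12-lipoxygenase of the mouse, was more abundant in control skin than *Alox12*: per kb of transcript it stood at 146 CPM against 12.6 CPM. It fell from 396, 344, 420, 343 and 269 CPM in the controls to 32.6, 28.5, 11.5 and 1.98 CPM in *Supt6*-KO mice 1 to 4. The groups were wide apart, and within *Supt6*-KO skin the values of *Alox12e* spanned more than 10-fold. Its log2 fold change was -4.25 ± 0.63 (SE, edgeR adjusted p = 1e-04), and -3.87 without *Supt6*-KO mouse 4. The sum of sebaceous gland markers was lower too, as given above, and its part in this fall was not tested.

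*Alox8* encodes the 8-lipoxygenase of mouse skin and was called higher, but on the strength of some of the mice. It stood at 13, 7.91, 6.92, 2.27 and 2.22 CPM in the controls and at 49.5, 46.8, 13 and 1.58 CPM in *Supt6*-KO mice 1 to 4. Mouse 4 lay below every control and mouse 3 level with the highest control. The log2 fold change of 2.10 ± 0.78 (SE, edgeR adjusted p = 0.031) did not pass in 7 of 17 alternatives, and with library totals it was 1.34 (edgeR adjusted p = 0.13). *Alox12b* and *Aloxe3* act in turn on the linoleate of barrier ceramides. *Alox12b* was not called (126 ± 13.5 and 135 ± 37.4 CPM, log2 fold change 0.10, edgeR adjusted p = 0.63). With library totals the sign of *Alox12b* turned (-0.61, edgeR adjusted p = 0.0085), still under 2-fold. *Aloxe3* fell from 69.3 ± 9.6 to 32.1 ± 12.8 CPM (log2 fold change -1.11, edgeR adjusted p = 0.0019). The change of *Aloxe3* was under 2-fold without *Supt6*-KO mouse 4 (-0.89) and with the length trend removed (-0.78). In *Supt6*-KO mouse 4 all 4 of these genes were lower than in the other *Supt6*-KO mice.

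**Figure D2:**
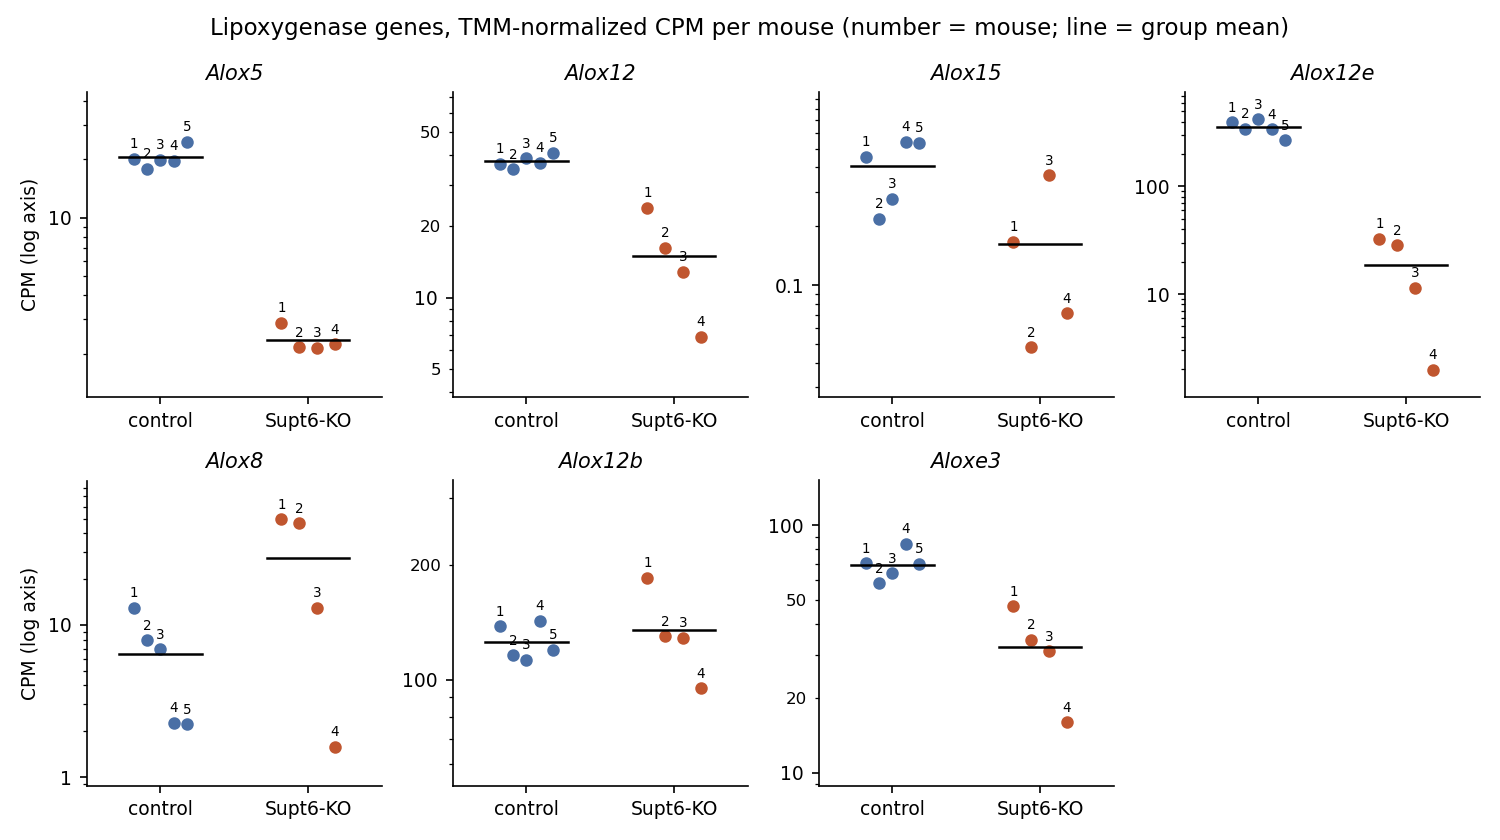
TMM-scaled CPM of 7 lipoxygenase genes on log axes, with 1 numbered point per mouse (5 controls in blue, 4 *Supt6*-KO mice in red) and a line at each group mean. *Alox5*, *Alox12*, *Alox12e* and *Aloxe3* lie below the controls in all 4 *Supt6*-KO mice, *Alox15* and *Alox12b* overlap, and *Alox8* runs from 49.5 to 1.58 CPM within *Supt6*-KO skin.

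Levels of different genes were set side by side as CPM per kb of the longest annotated transcript. In control skin the order was *Pla2g2f* (193 ± 27.9), *Ptgs1* (54.5 ± 4.44), *Ptges* (35.6 ± 7.46), *Hpgd* (30.3 ± 4.04), *Lta4h* (15.7 ± 0.48), *Alox5ap* (15.0 ± 2.53), *Alox12* (12.6 ± 0.775), *Alox5* (5.71 ± 0.698), *Ptgs2* (0.38 ± 0.171) and *Alox15* (0.168 ± 0.0618). The ranges of *Ptges* and *Hpgd* overlapped, as did those of *Lta4h* and *Alox5ap* and those of *Alox5ap* and *Alox12*. In *Supt6*-KO skin *Pla2g2f* was still at the top (359 ± 129 CPM per kb), but *Ptges* (92.7 ± 10.6) and *Hpgd* (72.8 ± 16) stood above *Ptgs1* (27.7 ± 8.09), which was level with *Alox5ap* (26.9 ± 2.05). *Lta4h* followed at 15.3 ± 2.55, and *Ptgs2* (5.27 ± 3.85) overlapped *Alox12* (5.00 ± 2.38). *Alox5* (0.658 ± 0.099) and *Alox15* (0.0678 ± 0.06) came last. These levels depend on the transcript chosen: with the mean length of a gene's transcripts, *Lta4h* stood at 44.2 CPM per kb in controls, above *Hpgd* at 30.3, and *Ptgs1* (104) stood next to *Ptges* (97.3).

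**Figure D3:**
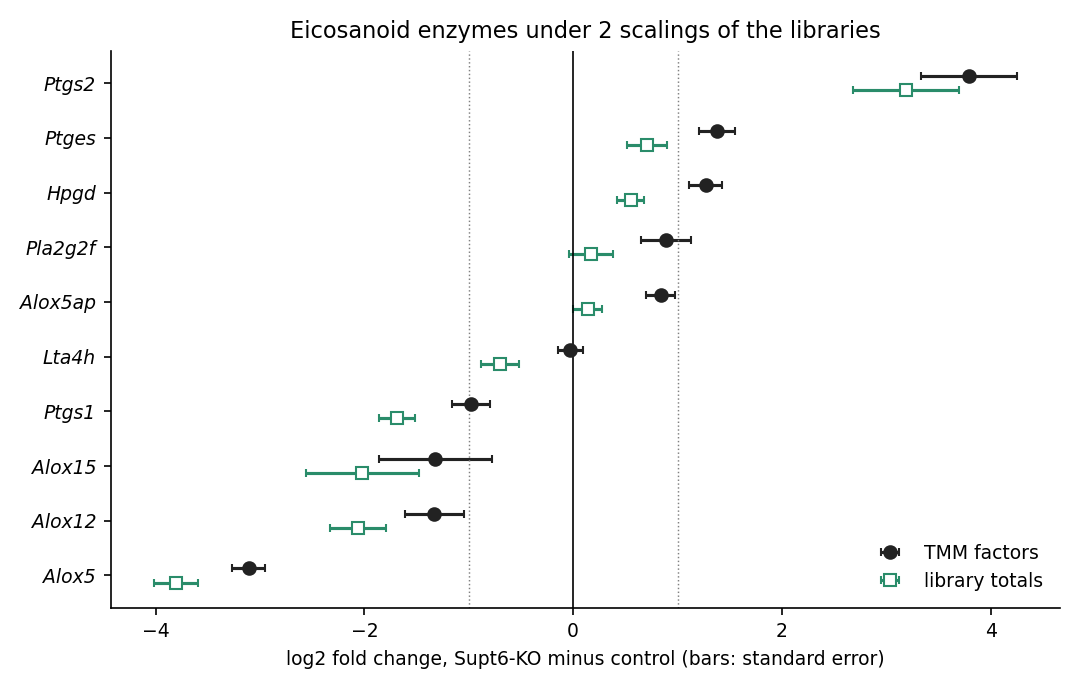
Log2 fold change of each of the 10 genes (*Supt6*-KO minus control, n = 4 and 5 mice) from edgeR, with TMM factors (filled circles) and with plain library totals (open squares); bars are standard errors and dotted lines mark a 2-fold change. Library totals set all 10 genes lower, *Ptgs2* from 3.79 to 3.19 and *Alox5* from -3.11 to -3.81, and bring *Alox5ap* and *Pla2g2f* close to 0.

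The rest of the pathway was described with 6 lists of 74 genes, of which 68 have a row and 66 were tested. Of these, 19 were called higher, 19 lower and 28 were not called, with a median log2 fold change of -0.08. This is 28.8% in each direction, somewhat above the 20.9% and 24.9% of all genes. With library totals 11 were higher and 27 lower. That scaling called 8.95% of the 16426 tested genes higher and 41.4% lower, so its counts are to be read against those percentages.

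Among 17 other phospholipases A2, 5 were called higher and 4 lower (median -0.45), and with library totals 5 and 7 (median -1.16). The rises were led by genes of low level in control skin. *Pla2g4d*, a cytosolic phospholipase known from psoriatic epidermis, rose from 0.35 ± 0.102 to 6.19 ± 2.5 CPM (log2 fold change 4.13 ± 0.32 SE, edgeR adjusted p = 1.3e-06), and *Pla2g2d*, a secreted enzyme of dendritic cells, from 0.46 ± 0.0894 to 4.0 ± 2.31 CPM (3.11 ± 0.35 SE, edgeR adjusted p = 1.2e-05). *Pla2g4b*, *Pla2g4e* and *Pla2g7* were the other 3 called higher, *Pla2g4e* going from 14.9 ± 3.21 to 93.0 ± 7.19 CPM. *Pla2g2e*, *Pla2g5*, *Pla2g6* and *Plaat3* were called lower, *Pla2g5* with -1.19, which was -0.99 without *Supt6*-KO mouse 4. *Pla2g4f*, with the highest CPM of the list averaged over the groups, stood at 59.4 ± 4.85 and 57.1 ± 13.2 CPM (log2 fold change -0.06, edgeR adjusted p = 0.75). With library totals its log2 fold change was -0.75 (edgeR adjusted p = 0.0016), under the 2-fold limit.

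Among 16 genes of prostanoid synthesis, transport and breakdown, 7 were called higher and 2 lower (median 0.57), and with library totals 3 and 4. *Ptges2* and *Ptges3*, the other prostaglandin E synthases, both had a log2 fold change of 1.43, and *Ptgds*, a prostaglandin D synthase, of 1.70. With library totals these changes were 0.73, 0.76 and 0.97, under the 2-fold limit. *Ptgr1*, a reductase that inactivates prostaglandins and leukotriene B4, rose from 125 ± 21 to 386 ± 103 CPM (1.63 ± 0.19 SE, edgeR adjusted p = 1.9e-05), and by 0.93 with library totals. *Akr1c18*, a reductase of progesterone and prostaglandins, stood between 1.97 and 15.2 CPM in the controls and at 68.1, 94.4, 326 and 446 CPM in *Supt6*-KO mice 1 to 4 (5.17 ± 0.74 SE, edgeR adjusted p = 7.3e-05). The other genes called higher were *Cbr3* and *Prxl2b*. *Slco2a1*, the transporter that takes up prostaglandins for breakdown by the *Hpgd* product, went the other way from *Hpgd*, from 31.2 ± 5.9 to 6.79 ± 3.48 CPM (-2.19 ± 0.30 SE, edgeR adjusted p = 5.3e-05). Over 17 alternatives the change of *Slco2a1* ran from -2.83 to -1.57, and it was called lower in each. *Ptgis*, the prostacyclin synthase of vessels, was called lower (log2 fold change -1.43), beside endothelial markers that summed to 84.2 ± 25.2 CPM in the control group and 40.8 ± 5.69 CPM in *Supt6*-KO skin (4 of 6 called lower, 5 with library totals), and the part of vessels in it was not tested.

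Of 9 tested genes of leukotriene synthesis and breakdown, 2 were called higher and 3 lower (median 0.69), and with library totals 2 and 4 (median -0.04). *Mgst2*, a microsomal glutathione transferase that can make leukotriene C4, stood at 6.39 to 12.2 CPM in the controls and at 111, 180, 186 and 31.3 CPM in *Supt6*-KO mice 1 to 4 (log2 fold change 3.88 ± 0.44 SE, edgeR adjusted p = 1.3e-05). *Ltc4s*, the dedicated leukotriene C4 synthase, was lower (6.87 ± 1.6 and 2.17 ± 0.846 CPM, log2 fold change -1.67, edgeR adjusted p = 0.0003, and -2.81 with the length trend removed). *Cyp4f18*, which degrades leukotriene B4 in mouse neutrophils, rose from 0.293 ± 0.0989 to 5.28 ± 2.32 CPM (4.15 ± 0.36 SE, edgeR adjusted p = 2.5e-06), beside the neutrophil markers given above. *Ggt1* and the exporter *Abcc1* were the other genes called lower, *Abcc1* with -1.03, which was under 2-fold in 5 of 17 alternatives. *Mgst3*, with the highest CPM of the list averaged over the groups, had a log2 fold change of 0.69 (edgeR adjusted p = 0.011) with TMM and -0.04 with library totals.

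Among 14 receptors, 3 were called higher and 4 lower (median -0.42), and with library totals 1 and 6 (median -1.07). These counts are near the shares of all genes, 20.9% and 24.9% with TMM and 8.95% and 41.4% with library totals. Of the receptors for prostaglandin E2, 3 were called lower, with log2 fold changes of -2.34 for *Ptger1*, -1.54 for *Ptger3* and -1.21 for *Ptger4*. *Ptger4*, at 2.33 CPM per kb of transcript against 1.49 for *Ptger3* and 0.642 for *Ptger1* in control skin, went from 8.80 ± 1.14 to 3.81 ± 0.809 CPM. *Ptger2*, the remaining one, had 7 to 22 counts per control and was called higher with TMM (1.18, edgeR adjusted p = 0.012), but not with library totals (0.47, edgeR adjusted p = 0.28). *Ptgfr*, the receptor for prostaglandin F2 alpha and the highest of the list in CPM in control skin, fell from 18.2 ± 3.2 to 7.51 ± 1.11 CPM (-1.27 ± 0.17 SE, edgeR adjusted p = 4.4e-05), with a change of -0.67 once the length trend was removed. *Ltb4r1*, the high-affinity receptor for leukotriene B4, was not called (10.6 ± 1.78 and 12.1 ± 3.56 CPM, log2 fold change 0.19, edgeR adjusted p = 0.41). With library totals its log2 fold change was -0.46 (edgeR adjusted p = 0.13). *Fpr2*, a receptor of formyl peptides and lipoxins on neutrophils and macrophages, had 0 to 4 counts in each control and 95 to 158 counts in each *Supt6*-KO mouse (0.0547 ± 0.0551 and 5.10 ± 1.45 CPM), so that its fitted log2 fold change of 6.46 depends on the prior count. It too stood beside higher sums of neutrophil and macrophage markers. *Ptgdr* was the third gene called higher (1.55, and 0.82 with library totals, edgeR adjusted p = 0.10).

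Of 6 tested epoxide hydrolases and epoxygenases, 1 was called higher and 4 lower (median -1.09), and with library totals 0 and 4 (median -1.79). *Ephx3*, an epoxide hydrolase of the epidermal barrier, rose from 42.2 ± 5.53 to 107 ± 7.37 CPM (log2 fold change 1.34 ± 0.12 SE, edgeR adjusted p = 3.2e-06), with a change of 0.66 under library totals. *Cyp2b19*, an epoxygenase of mouse keratinocytes, fell from 51.1 ± 8.76 to 18.2 ± 9.15 CPM (-1.49 ± 0.37 SE, edgeR adjusted p = 0.0036). *Ephx1*, *Ephx2* and *Cyp2j9* were also lower, *Cyp2j9* with -1.06, which was -0.79 without *Supt6*-KO mouse 4. *Cyp2j6*, the highest of the list in CPM in control skin, was not called (92.9 ± 12.2 and 101 ± 42.8 CPM, log2 fold change 0.12, edgeR adjusted p = 0.73) and had a negative sign with library totals (-0.64).

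**Figure D4:**
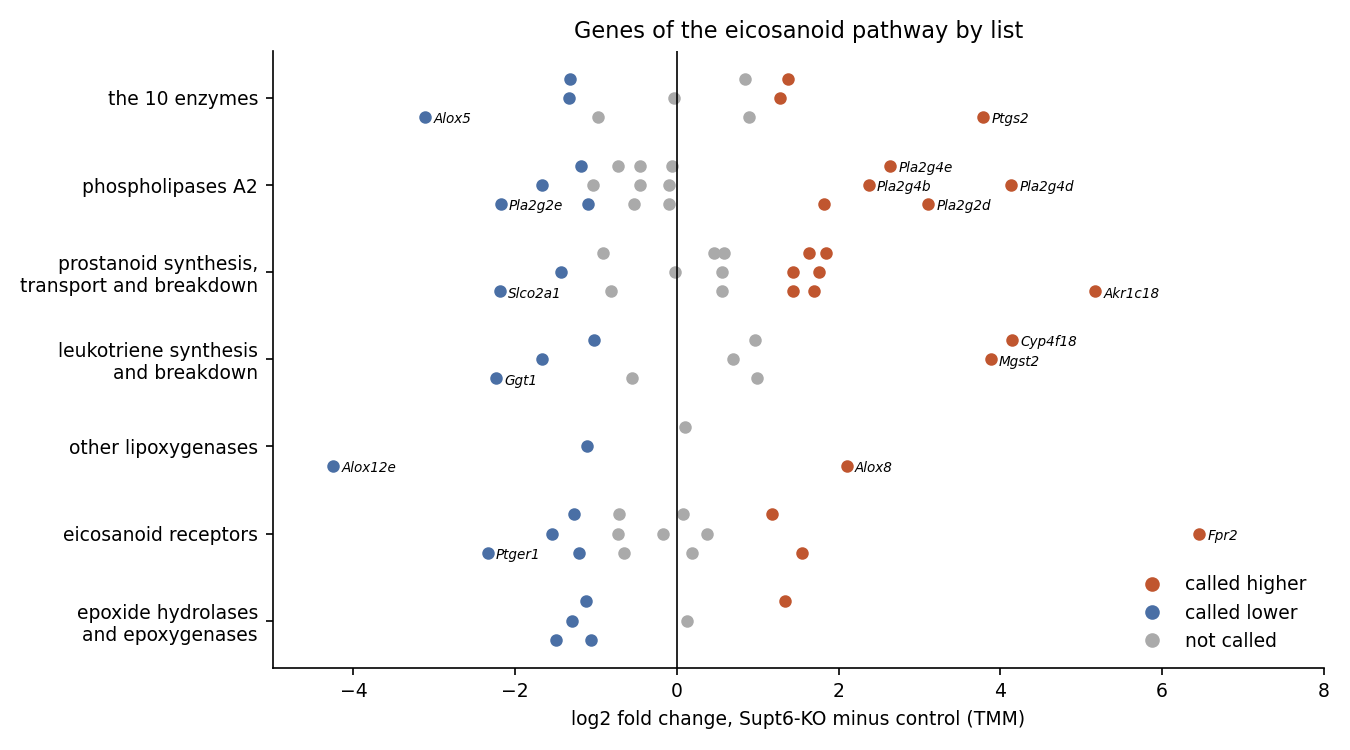
Log2 fold change (*Supt6*-KO minus control, TMM, 4 and 5 mice) of the 10 enzyme genes and of the 66 tested genes of 6 pathway lists, 1 point per gene, red where called higher, blue where called lower and grey where not called. Each list holds genes on both sides of 0, from *Alox12e* at -4.25 to *Fpr2* at 6.46.

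The genes whose pattern over the 9 mice was most like that of *Ptgs2* were found by the root mean square difference of log2 (CPM + 0.5), centred on each gene's mean, over 13894 genes. They were *Tslp*, a keratinocyte cytokine, with a difference of 0.30, *Slco1a5*, an organic anion transporter, with 0.33, and *Areg*, an epidermal growth factor receptor ligand, with 0.35. Their log2 fold changes were 3.79, 4.74 and 3.47. For *Hpgd* they were *Phf7* (0.09), *Yeats4* (0.10) and *Zfand5* (0.11), with log2 fold changes of 1.39, 1.33 and 1.25. The measure takes in the difference between the groups as well as the spread within them.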

How the data were processed

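RNA was taken from the skin of 5 control and 4 *Supt6*-KO mice and sequenced as paired reads on a DNBSEQ instrument. The authors aligned reads to mm10 with Bowtie2 (2.3.4.3) and deposited expected counts per gene from RSEM (1.3.1), with no scaling between mice. Whether strand was used is not given in the sources used here. About 9% of the deposited expected counts are not whole, though all 90 values of the 10 genes are; all were rounded. The authors' processing notes also name HISAT and DESeq2 (1.4.5). TPM values deposited for 6 mice were not used. Of the genes, 17917 matched RefSeq GRCm38.p6 and 26 did not. Promoter windows are from RefSeq GRCm38.p6 and cover 8 of the 10 genes; transcript lengths are from GENCODE.

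Genes with under 10 counts over the 9 mice were left out, leaving 16426. Counts were TMM-scaled and tested with edgeR 4.0.16 (quasi-likelihood; R 4.3.3) without covariates, and p was adjusted by Benjamini and Hochberg over all genes. The standard error is the log2 fold change divided by the square root of F. As alternatives, counts were scaled by library totals or upper-quartile factors, filters and thresholds were changed, and DESeq2 1.42.0 was run, along with removal of the 50 most abundant genes or of the length trend, a replicate block, and each mouse left out. The fits in R were tested on simulated counts. The other steps used Python 3.11.15 with scipy 1.17.1 and pandas 2.3.3 and were not tested in this way. The 10 genes and the pathway and marker lists were chosen with earlier results of these data known. Named genes are *Supt6*, the 10, and of each pathway list the gene with the highest CPM (mean of both group means) and the 2 with the largest change at adjusted p under 0.05 and at least 1 CPM; other pathway and marker genes in the text were named after their values were seen. No 2 libraries of the same group agreed within sampling noise.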

Additional observations from a re-analysis of the deposited data

Results flagged for a closer look

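Of 62 groups of 4 or 5 mice examined (genes and within-mouse ratios), 3 had a mouse far from the rest of its group, where chance gives about 3.1. *Alox5* stood at 2.88 CPM in *Supt6*-KO mouse 1 against a group median of 2.19 CPM, still far below every control. *Lta4h* stood at 61.7 CPM in *Supt6*-KO mouse 4 (group median 45.8 CPM), and without that mouse its log2 fold change was -0.16. *Pla2g2d* stood at 7.44 CPM in *Supt6*-KO mouse 4 (group median 3.03 CPM). The source of these values was not tested.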

How the results depend on the processing

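With library totals in place of TMM, which moved the median change over the genes tested from -0.072 to -0.759, 1470 genes were called higher and 6802 lower, against 3427 and 4088, and of the 10 enzyme genes 1 was called higher and 4 lower, against 3 and 3. With no limit on the size of the change, 5608 genes and 5 of the 10 were higher. With the length trend removed, 2 of the 10 were called higher and 4 lower, against 2960 and 3615 of the 16426 genes tested. With DESeq2 the counts were 3 and 2 of the 10, against 3570 and 3773 of the 16426. With each mouse left out in turn, 3248 to 3476 genes were called higher and 3845 to 4204 lower, and 3 to 4 and 2 to 3 of the 10 enzyme genes.

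Some small changes turned sign: *Lta4h* (-0.03) was 0.03 with DESeq2, 0.00 with the length trend removed and -0.16 to 0.01 with a mouse left out. With library totals *Alox12b* (0.10) was -0.61, *Ltb4r1* (0.19) was -0.46 and *Awat2* (0.30) was -0.44. *Pla2g4f* (-0.06) was 0.00 with DESeq2 and -0.23 to 0.02 with a mouse left out, *Mgst3* (0.69) was -0.04 with library totals and -0.12 with the length trend removed, and *Cyp2j6* (0.12) was -0.64 with library totals, -0.06 with the replicate block and -0.08 to 0.39 with a mouse left out. The cause was not tested. Of 45 named genes that were called, 18 lost the call in at least 1 alternative. An adjusted p under 0.05 was lost for *Alox15*, *Alox8*, *Ptger2* and *Ptgdr*, in 8, 7, 1 and 1 alternatives. The change alone fell under 2-fold with library totals for *Ptges*, *Hpgd*, *Ptgr1*, *Ptges2*, *Ptges3*, *Ptgds* and *Ephx3*, with the length trend removed for *Supt6* (-0.98), *Hpgd*, *Ptgfr*, *Abcc1* and *Aloxe3*, and with a mouse left out for *Pla2g5*, *Abcc1*, *Aloxe3*, *Ephx1* and *Cyp2j9*. It did so for *Abcc1* and *Cyp2j9* with DESeq2, and for *Abcc1* with the replicate block. Of the genes not called, *Alox5ap* lost its pass with library totals and with the length trend removed, and *Pla2g2f* with library totals. *Supt6*, *Ptgs1*, *Ptgs2*, *Ptges*, *Hpgd*, *Alox5* and *Alox12* kept their direction and an adjusted p under 0.05 in all 17.

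Mice of the same number were not taken as pairs: the correlation of their deviations ran from 0.0133 to 0.2336 over 4 pairs (mean 0.133), against a mean of -0.0281 over 16 other pairs. With the replicate block, which leaves out control 5, 3139 genes were called higher and 3836 lower, 3 and 3 of the 10 enzyme genes, and *Alox15* did not pass (-1.26, edgeR adjusted p = 0.10). *Alox15* and *Ptger2* had under 25 counts in each mouse, and the part of depth in their values was not tested.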
